A study of Homo sapiens with 93 samples.

Results

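The genes described here are zinc finger genes of the cluster on chromosome band 19p12, listed in order from ZNF14 to ZNF254. The list holds Ensembl gene identifiers and uses no measured value. The cluster itself was chosen with earlier results of these data known. Of 33 identifiers listed, 29 had a row among the 14000 features of the H3K36me3 count table, and the other 4 were not analysed here. All 29 passed the filter on low counts, which kept 13915 features with at least 10 counts in at least 47 lines.

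KRAB zinc finger proteins bind DNA through arrays of C2H2 fingers, and most are known as repressors of transposable elements. Their KRAB domain recruits the corepressor TRIM28, which brings in the methyltransferase SETDB1, and SETDB1 lays H3K9me3. The genes themselves arose largely by tandem duplication, so neighbours resemble each other in sequence. H3K36me3, trimethylation of lysine 36 of histone H3, is laid by SETD2 over the bodies of transcribed genes, and the final exons of zinc finger genes are known to carry it together with H3K9me3 in many human cells.

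The study profiled H3K36me3 by CUT&Tag, in which an antibody tethers a transposase to chromatin and the DNA it cuts is sequenced. All samples belong to 1 group of 93 human lymphoblastoid cell lines, B cells immortalised with Epstein-Barr virus, with 1 library per line and no repeat library of any line. Culture took place in 4 batches, each with some 20 to 35 lines, in medium holding 20% serum. Aliquots of 100000 frozen cells, a polyclonal antibody and 14 cycles of PCR were used. The labels do not assign lines to batches, so differences of line, culture and library preparation cannot be told apart in any value below. The labels name no other treatment and no genotype groups. Each line has its own name, and any genetic difference between lines is part of the difference of line.

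Library totals ran from 2842955 to 24325746 counts with a median of 14883653, and the median count per feature from 114 to 1022. A second feature of the libraries was their dynamic range, the median log2 level of the top 20% of features minus that of the bottom 20%, computed without the zinc finger genes. Dynamic range ran from 4.16 to 4.99 with a median of 4.52 and was lower in deeper libraries (Pearson's r -0.498, Spearman's rho -0.452, 93 lines; r -0.424 without the 2 libraries farthest from the median total), although r was -0.432 within the 46 libraries with the lower totals and 0.0325 within the 47 with the higher totals. It is used below as a covariate beside the library total. The reference tables held no Ensembl identifiers beside their symbols, so 0 of the 14000 identifiers could be matched. For this reason the genes are named by their versioned identifiers. The cell type could not be checked against marker genes, and levels were not divided by gene length. Levels are therefore compared between lines for 1 gene and not between genes. Reads of near-identical paralogues may have been shared between these rows or dropped, and how such reads were treated was not given in the sources used here.

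Kinship within the cluster is visible in the promoters of its genes, and a set of stretches is shown for that reason. RefSeq on GRCh38.p14 places 36 protein-coding ZNF genes between ZNF14 and ZNF254 (chr19:19710472-24129968), and 28 of them had a promoter entry of 300 bases, 250 before to 50 after the start the entry uses. That start was the outermost start of the gene in 24 of 28 entries and lay inside the annotated gene in the other 4. The word of 10 letters that most of them shared was TCCAATCAGG, in 25 of 28 (89.3%) and on the strand of the gene in all 25, against 0.347% of 35116 promoters genome-wide. Both strands were searched. The word was picked because it was the most shared, so these shares are a description only. It holds the letters CCAAT of the CCAAT box, which were found in 28 of 28 of these promoters and in 34.6% of all. A second word, CTGTCACTCA, was found in 22 of 28 (78.6%) against 0.327% of all. The most upstream copy of the first word in each promoter ended 21 to 79 bases before the start of the entry, with a median of 49. Some promoters, such as those of ZNF93 and ZNF43, hold a further copy closer to the start. Of the 25 promoters with the word, 8 spread over the cluster were chosen for display. Others, such as those of ZNF93 and ZNF43, have different letters around their most upstream copy and are not shown. The 8 stretches of 70 bases below all end before the start their entry uses. They run 5′ to 3′ on the strand of the gene with the shared word in capitals.
ZNF14 (chr19:19733127-19733196, minus strand): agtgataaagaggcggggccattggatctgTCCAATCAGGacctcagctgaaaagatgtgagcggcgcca
ZNF486 (chr19:20167126-20167195, plus strand): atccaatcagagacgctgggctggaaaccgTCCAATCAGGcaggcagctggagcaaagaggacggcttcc
ZNF85 (chr19:20923168-20923237, plus strand): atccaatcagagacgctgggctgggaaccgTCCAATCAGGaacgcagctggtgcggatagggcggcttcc
ZNF431 (chr19:21141951-21142020, plus strand): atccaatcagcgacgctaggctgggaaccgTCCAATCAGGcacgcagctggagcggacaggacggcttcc
ZNF100 (chr19:21767592-21767661, minus strand): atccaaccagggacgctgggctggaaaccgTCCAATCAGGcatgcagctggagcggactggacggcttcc
ZNF91 (chr19:23395491-23395560, minus strand): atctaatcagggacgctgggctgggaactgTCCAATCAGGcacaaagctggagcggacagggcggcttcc
ZNF726 (chr19:23914797-23914866, plus strand): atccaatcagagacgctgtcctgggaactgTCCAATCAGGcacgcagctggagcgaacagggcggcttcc
ZNF254 (chr19:24087104-24087173, plus strand): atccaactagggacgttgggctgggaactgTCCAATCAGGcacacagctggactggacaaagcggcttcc

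Compared position by position without gaps, the ZNF14 stretch matched each of the other stretches at 62.9% of positions or fewer. Among the other 7 stretches, the pairs matched at 77.1% to 91.4% of positions, with a median of 88.6%. The 10 letters of the shared word match in every pair by construction. These values hold for the stretches chosen and not for the whole cluster. The start used for ZNF254 lies 53738 bases inside the annotated gene, and the other 7 are outermost starts. These stretches belong to genes of the region by symbol. They were not paired with rows of the count table, and H3K36me3, a mark of gene bodies, was not measured over them separately.

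The 29 genes held a small and variable share of the libraries. Together they took 0.0563% to 0.138% of all counts, with a median of 0.0851%. Their summed level, in CPM (counts scaled to a common library total with TMM factors), was 548 in the lowest line, 843 in the median line and 1409 in the highest, a 2.57-fold span, and its mean was 887 ± 206 (SD, n = 93). The 90th percentile of lines (1183 CPM) was 1.84 times the 10th (644 CPM), so the span was not set by the extreme lines alone.

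The summed level also moved with the 2 properties of the libraries. Its median was 939 CPM in the 46 lines with the lower totals (628 to 1409) and 745 CPM in the 47 lines with the higher totals (548 to 1184), and these ranges overlapped. On the log2 scale, the summed level correlated with the log2 total at r -0.393 (rho -0.412; -0.377 without the 2 libraries farthest from the median total), but at -0.0017 within the 46 lower and -0.0941 within the 47 higher totals. Its correlation with dynamic range was r 0.609 (rho 0.622; 0.586 without the 2 farthest libraries), and it was 0.400 within the lower and 0.656 within the higher totals. These 3 relations among summed level, total and dynamic range were computed on the same 93 libraries and are given as descriptions. The relation with the total was thus close to 0 within each set of libraries, and that with dynamic range was positive within both.

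Individual genes lay at very different positions of the range of counts, which sets how finely each was measured. ENSG00000105708.9, the first gene of the list, had 11.4 CPM in the lowest line, 25.9 in the median line and 51.3 in the highest. ENSG00000213096.10, the last, had 49.2, 77.2 and 117 CPM, and its median of 77.2 CPM (1120 counts) was the highest of the cluster in these units. The next medians in the list were 63.9 CPM for ENSG00000118620.13 (35.6 to 114) and 61.5 CPM for ENSG00000196705.8 (36.8 to 113). If counts are independent, counting error at these 3 medians is 0.0299 to 0.0348 of the level. The SD between lines was 0.193 to 0.256 of the mean level for these genes.

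The 3 least covered genes had under 100 counts in the median line. ENSG00000229676.3 had 0.884, 3.31 and 6.85 CPM in the lowest, median and highest line, on a median of 46 counts. ENSG00000197134.13 ran from 0 over 4.79 to 12.2 CPM on a median of 68 counts, and ENSG00000105750.15 ran from 2.74 over 6.41 to 11.9 CPM on 86 counts. The single count of 0 came from the library with the smallest total, where 3 counts, the limit that a count of 0 allows, equal 1.06 CPM. Counting error alone gives a coefficient of variation (CV, SD over mean) of 0.147 at 46 counts and 0.0299 at 1120 counts, against observed CVs of 0.188 to 0.494 over the 29 genes. PCR copies carry no molecular identifiers here, so these figures cover counting error only, with counts taken as independent. In the rows of the cluster 58.2% of counts were even numbers, against 50.1% in the first 1900 rows. What this means for the counting error was not tested.

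**Figure D1:**
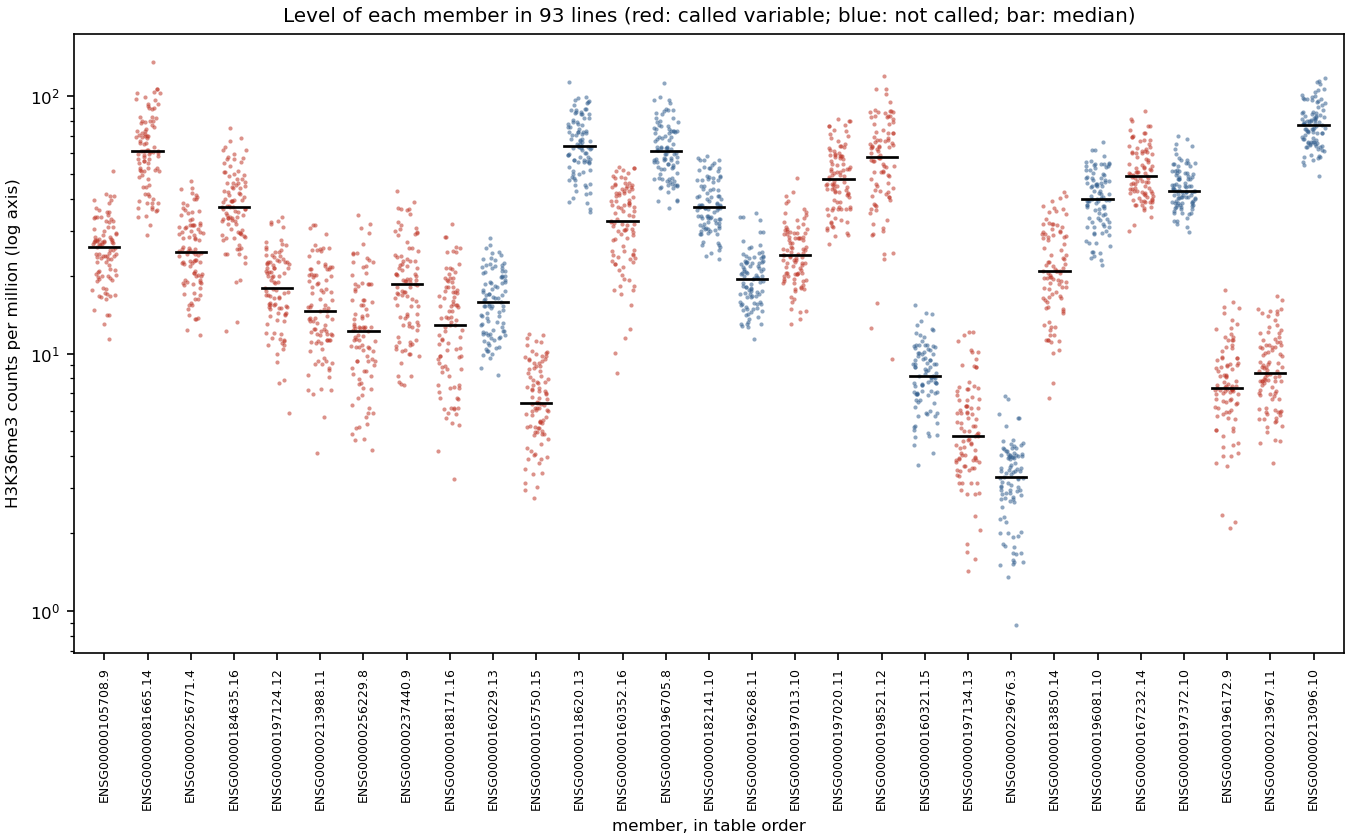
H3K36me3 level of each of the 29 zinc finger genes in CPM (vertical log axis), with genes in table order along the horizontal axis; each point is 1 line, the bar is the median over 93 lines, red marks genes called variable and blue the others. Medians ran from 3.31 to 77.2 CPM, and the 1 value of 0, for ENSG00000197134.13, cannot be drawn on the log axis.

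Most of the genes differed between lines by more than features of their level did. Of 29 genes, 19 (65.5%) varied beyond the trended dispersion, against 18.4% of all 13915 features tested (edgeR goodness-of-fit test with log2 total and dynamic range as covariates, Benjamini-Hochberg adjusted p below 0.05). The median ratio of a gene's own to the trended dispersion was 0.97 on the log2 scale for the cluster and -0.52 for all features. Here and below, a gene's own dispersion is edgeR's tagwise estimate, which is drawn toward the trend. The median CV was 0.317 for the cluster against 0.205 for all features. In the 30 table rows before the cluster and the 30 after it, 6.67% of features were called on each side. The first 9 genes of the list were all called, and of the other 20 genes 10 were called.

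The count depended on how strict the definition of variability was. DESeq2, which flags only features whose dispersion stands far above its fitted trend, flagged 4 of the 29 genes (1.83% of all features), namely ENSG00000256229.8, ENSG00000188171.16, ENSG00000198521.12 and ENSG00000183850.14. Leaving out each line in turn gave 18 to 20 calls among the 29 genes, and the share of all features in those fits was not kept. ENSG00000229676.3 crossed the threshold in 37 of 93 such fits, and ENSG00000167232.14 was called in 90 of 93.

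Genes near the start of the list spread widely between lines. ENSG00000188171.16 had 3.26 CPM in the lowest line, 13.0 in the median line and 31.9 in the highest, with a 3.52-fold ratio between the 90th and 10th percentiles. ENSG00000256229.8 had 4.21, 12.2 and 34.5 CPM, and its CV of 0.494 and its percentile ratio of 3.87 were the highest of the 29. Their own dispersions exceeded the trend by 2.47 and 2.46 on the log2 scale (edgeR goodness-of-fit, adjusted p = 1.16e-48 and 5.91e-48). Both percentile ratios leave out the highest and the lowest lines, so the spread of both genes was carried by many lines.

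Another 2 genes of the same stretch varied nearly as much. ENSG00000213988.11 ran from 4.12 over a median of 14.6 to 31.7 CPM, a ratio of own to trended dispersion of 2.08 on the log2 scale (edgeR goodness-of-fit, adjusted p = 5.28e-31). ENSG00000237440.9 ran from 7.55 over 18.6 to 43 CPM, with a ratio of 2.01 (adjusted p = 4.67e-29, same test). Over list positions 2 to 9 the dispersion ratio lay between 1.23 and 2.47, and the percentile ratio between 2.25 and 3.87. Within that stretch, ENSG00000184635.16 ran from 12.2 over 37.2 to 75.4 CPM with a log2 ratio of 1.75 (adjusted p = 1.98e-22).

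Further along the list, some highly variable genes stood beside genes that were not called. ENSG00000198521.12 had 9.50 CPM in the lowest line, 58 in the median line and 120 in the highest. Its spread had a long lower tail, with 7 lines under 50% of the median and 2 of them under 25%, and its log2 dispersion ratio was 2.37 (edgeR goodness-of-fit, adjusted p = 1.93e-49). ENSG00000160352.16 ran from 8.43 over 32.8 to 53.1 CPM, with a log2 ratio of 1.79 (adjusted p = 8.56e-24, same test). Its median also lay nearer to its highest than to its lowest line on the log scale.

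Among genes late in the list, ENSG00000183850.14 had 6.72, 21 and 42.6 CPM in the lowest, median and highest line (log2 ratio 2.16, edgeR goodness-of-fit, adjusted p = 5.37e-36). ENSG00000197134.13, the gene with a count of 0 in 1 line, had a log2 ratio of 2.08 (adjusted p = 1.17e-24, same test), with 7 lines under 50% of the median and 7 over 200% of it. At its median of 68 counts, part of this spread is counting error, for which the test allows. ENSG00000196172.9 ran from 2.10 over 7.35 to 17.6 CPM, with a log2 ratio of 1.59 (adjusted p = 3.63e-14, same test). The 10 highest ratios, 1.59 to 2.47, were 0.306 to 1.63 with all libraries thinned to the smallest total, for example 0.81 for ENSG00000188171.16, 1.05 for ENSG00000256229.8 and 1.63 for ENSG00000198521.12. Of these 10 genes 9 were still called, and ENSG00000196172.9 was not (edgeR goodness-of-fit, adjusted p = 0.0668). The other 9 called genes had adjusted p from 2.07e-16 for ENSG00000197124.12 to 0.0228 for ENSG00000167232.14 in the edgeR goodness-of-fit test.

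Other genes differed between lines no more than their level foretold. ENSG00000197372.10 had 29.7 CPM in the lowest line, 42.9 in the median and 69.9 in the highest, a CV of 0.188, and a log2 ratio of own to trended dispersion of -0.46. ENSG00000182141.10 (23.3, 37.1 and 58.8 CPM) and ENSG00000160321.15 (3.68, 8.18 and 15.4 CPM) had log2 ratios of -0.32 and -0.30. All 3 had an adjusted p of 1 in the edgeR goodness-of-fit test, which does not show that they were constant. After thinning, ENSG00000160321.15 had a log2 ratio of 0.49 and was called (adjusted p = 0.00251, same test). Over the 10 genes not called, the CV ran from 0.188 to 0.349, overlapping the 0.241 to 0.494 of the 19 called.

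**Figure D2:**
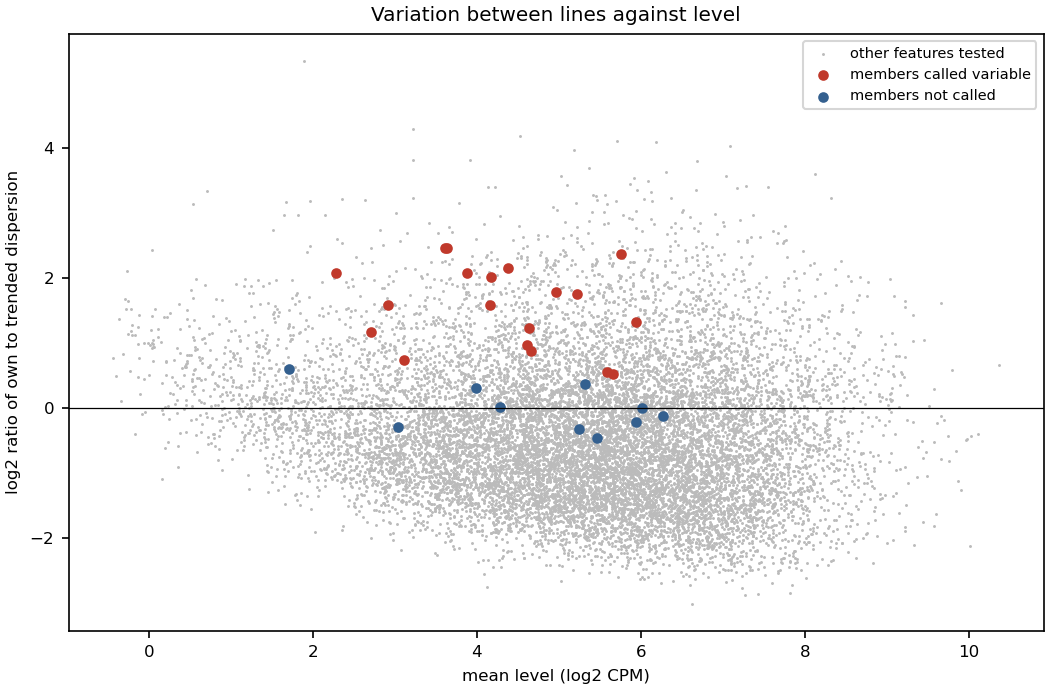
Log2 ratio of each feature's own dispersion to the trended dispersion (vertical axis) against its mean level in log2 CPM (horizontal axis) for 13915 features; large red and blue points are the 29 zinc finger genes, called and not called variable. The 19 called genes lie between 0.516 and 2.47, and the 10 not called between -0.462 and 0.595.

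The genes rose and fell together across lines. After log2 total and dynamic range were removed from log2 CPM (prior count 2), the 406 pairs of genes had a mean Pearson correlation across the 93 lines of 0.486 ± 0.180 (SD over pairs), with a range of -0.155 to 0.835. In 226 pairs (55.7%) r was over 0.5, and in 5 it was below 0. Over all 96806655 pairs of the features tested, the mean was 0.00755 and 1.83% were over 0.5. The lines, depth and growth batches are shared by every pair, so these values are descriptions and carry no p. The mean fell from 0.486 to 0.232 with all libraries thinned to the smallest total, and to 0.293 when 10 principal components replaced the covariates, against 0.00187 and 0.00474 over all pairs.

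Within the cluster, mean r changed little with distance in the table. Pairs with the 4 genes of the inner stretch described below are included, and the distances were not compared without them. Genes in adjacent rows had a mean r of 0.560 (27 pairs), those 2 to 5 rows apart 0.498, 6 to 10 rows apart 0.463, 11 to 20 rows apart 0.472, and 21 to 29 rows apart 0.511 (45 pairs). Over all features, the corresponding means fell from 0.278 in adjacent rows over 0.140, 0.0994 and 0.0815 to 0.0673. The correlation of a gene with the mean of the other 28 genes ran from 0.174 to 0.880, with a median of 0.720.

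The 3 closest pairs were formed by genes in consecutive rows near the start of the list. ENSG00000213988.11 and ENSG00000256229.8 had r 0.835 (rho 0.799; 0.813 without the 2 lines farthest from the median), and ENSG00000197124.12 and ENSG00000213988.11 had r 0.833 (rho 0.839; 0.832). ENSG00000197124.12 and ENSG00000256229.8, which complete this trio, had r 0.807 (rho 0.793; 0.794). Further along the list, ENSG00000196705.8 correlated with ENSG00000197020.11 at 0.799 (rho 0.776; 0.769) and with ENSG00000237440.9 at 0.789 (rho 0.769; 0.765). Within the 46 libraries with lower totals these 5 values were 0.818, 0.822, 0.818, 0.823 and 0.820 in the order given. Within the 47 with higher totals they were 0.853, 0.845, 0.796, 0.748 and 0.716. The 2 lines left out of a pair are those farthest from the median of the gene earlier in the table, so far lines of the other gene remain. Reads shared between paralogues could enter all these correlations, and their part was not tested.

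At the other end, ENSG00000160321.15 moved apart from most of the cluster. Its r was -0.155 with ENSG00000118620.13 (rho -0.199; -0.197 without the 2 farthest lines; -0.225 and -0.0101 within the lower and higher totals). With ENSG00000196081.10 its r was -0.116 (rho -0.173; -0.184; -0.122 and -0.0994). Its r with the mean of the other genes, 0.174, was the lowest of the 29, followed by 0.356 for ENSG00000229676.3 and 0.419 for ENSG00000160352.16. Median counts of these 3 genes were 116, 46 and 380. The 2 farthest lines were again those of the gene earlier in the table. This was ENSG00000118620.13 in the pair with r -0.155 and ENSG00000160321.15 in the pair with r -0.116.

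**Figure D3:**
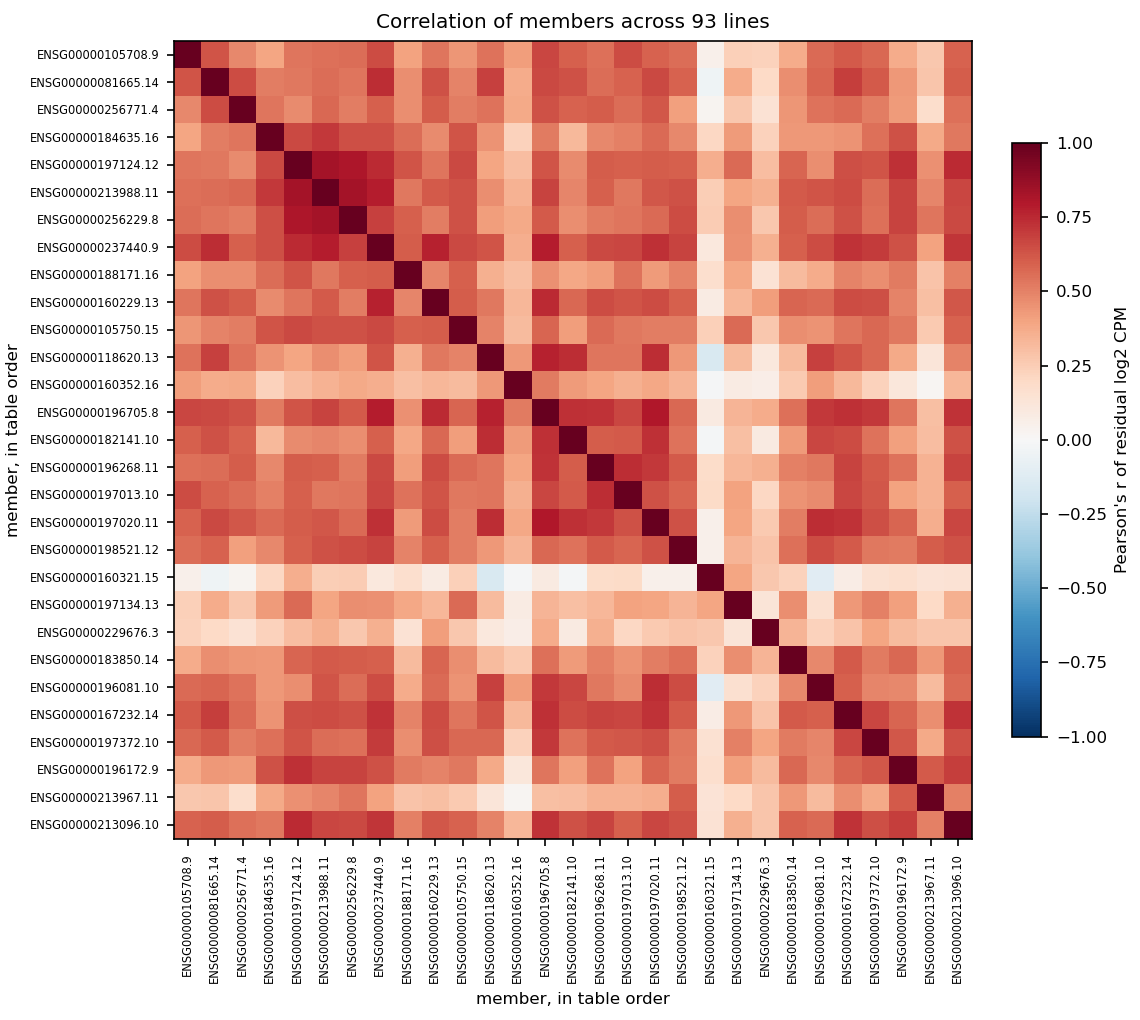
Pearson's r of residual log2 CPM across 93 lines for every pair of the 29 zinc finger genes, in table order on both axes; red is positive and blue negative. The block of ENSG00000197124.12, ENSG00000213988.11 and ENSG00000256229.8 holds the highest values (0.807 to 0.835), and the row of ENSG00000160321.15 holds the lowest, down to -0.155.

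The shared movement was seen as lines in which most genes of the cluster were high or low at once. The number of genes above their own mean, after the covariates were removed, ran from 1 to 29 of 29 per line with a median of 14. In 17 lines at least 25 genes were above their mean, in 3 of these all 29 were, and in 10 lines at most 4 were. Another 27 lines had between 10 and 19 genes above the mean. In no line were all 29 genes below it.

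Most rows next to the cluster showed little of its shared movement. The 30 features before it had a median r of 0.0325 with the mean of the cluster (-0.356 to 0.672, 1 over 0.5), and the 30 after it a median of 0.0282 (-0.348 to 0.551, 1 over 0.5). The feature in the row before the first gene, ENSG00000181896.12, had the 0.672. ENSG00000172687.13, the 1 feature between the first and last gene that is not on the list, had r 0.75 with the mean. Its level was 11.1, 18.6 and 33.7 CPM in the lowest, median and highest line, and it was not called variable (edgeR goodness-of-fit, adjusted p = 0.266).

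The features most like the cluster lay elsewhere in the table, in a few runs of neighbouring rows. Over the 13886 other features the median r with the mean of the cluster was 0.0108, and 217 (1.56%) were over 0.5. The 5 highest were ENSG00000173041.12 (r 0.821, rho 0.825), ENSG00000186020.13 (0.821 and 0.812), ENSG00000167562.12 (0.806 and 0.816), ENSG00000267041.6 (0.790 and 0.814) and ENSG00000234444.10 (0.781 and 0.759), each over 93 lines. Within the lower and higher totals r was 0.860 and 0.746 for the first of them, 0.850 and 0.763 for the second, 0.857 and 0.712 for the third, 0.785 and 0.806 for the fourth, and 0.775 and 0.782 for the fifth. These 5 were picked for the highest r. For the genes of the cluster, r with the mean of the other genes had a median of 0.720 and a highest value of 0.880.

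Of the 100 features with the highest r, the lowest of them at 0.603, 71 fell into 5 runs that together cover 120 rows of the table. A run was counted where at least 5 of the 100 followed each other with gaps of at most 10 rows. The runs held 13 of 22, 20 of 30, 22 of 37, 9 of 23 and 7 of 8 of their rows, and the mean r over every row of each run was 0.588, 0.623, 0.594, 0.480 and 0.715. The cluster itself fills rows 7106 to 7135. The first 4 runs lie in rows 6915 to 7714 and the fifth in rows 12484 to 12491. Only 2 of the 100 lay within 30 rows of a gene of the cluster, and 35 of the 100 were called variable. The rows of the cluster follow the order of its list. For the other rows, no source used here relates the row order to the genome.

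**Figure D4:**
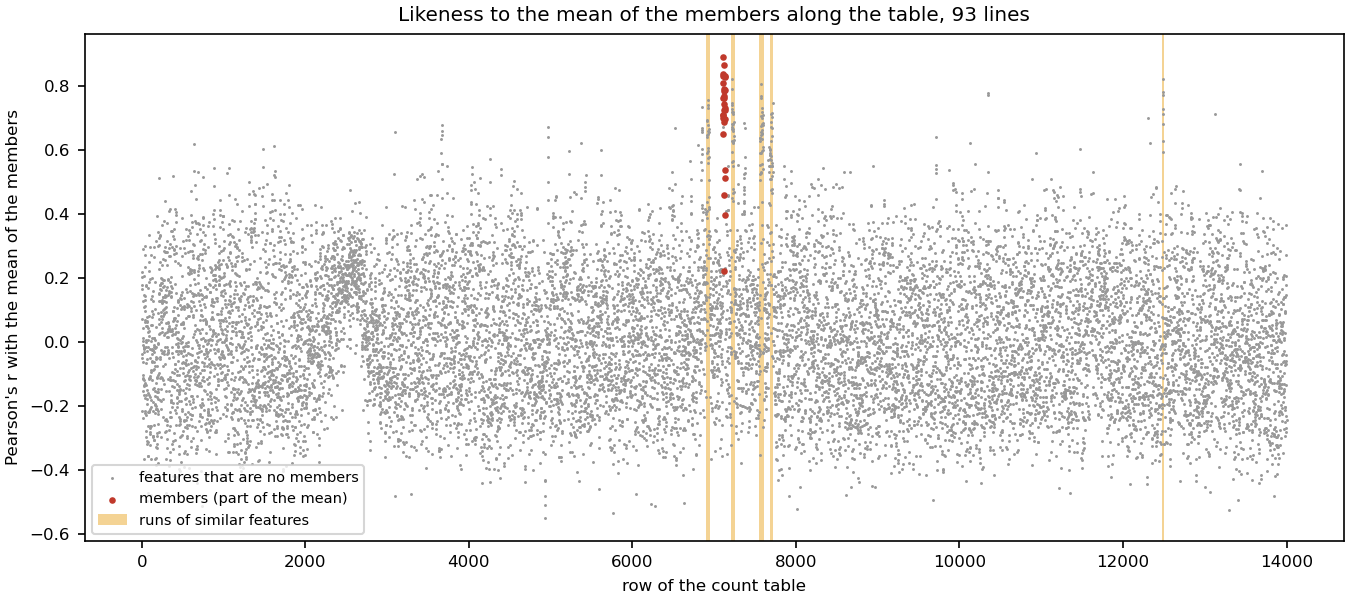
Pearson's r of every feature with the mean residual level of the zinc finger cluster across 93 lines (vertical axis) against its row in the count table (horizontal axis); red points are the 29 zinc finger genes, which form part of that mean, and shaded bands the 5 runs of similar features. The bands at rows 6915 to 7714 and at 12484 to 12491 hold 71 of the 100 features most like the cluster.

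Most genes of the cluster were higher in lines with a wider dynamic range. With log2 total in the same fit, 21 of 29 rose with dynamic range against 44.8% of all features, and 2 fell against 35.7% (edgeR quasi-likelihood test, Benjamini-Hochberg adjusted p below 0.05). The median coefficient was 1.01 for the cluster and 0.18 for all features, in log2 CPM per log2 unit of dynamic range, a measure that itself spanned 4.16 to 4.99. Features of low level tended to fall with dynamic range by its construction. In the lowest 20% of features by level the median coefficient was -0.82, against 0.79 for the 8 zinc finger genes of that class. In the following 3 classes the medians were -0.05, 0.27 and 0.44 for all features and 1.06, 1.24 and 1.41 for the 9, 8 and 4 genes in them.

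The steepest rises were those of ENSG00000198521.12, with a coefficient of 1.53 ± 0.365 (SE, edgeR quasi-likelihood, adjusted p = 0.0001), ENSG00000081665.14, with 1.49 ± 0.255 (adjusted p = 1.78e-07), and ENSG00000197020.11, with 1.49 ± 0.199 (adjusted p = 1.35e-10). Levels of ENSG00000081665.14 were 28.9, 61.4 and 136 CPM in the lowest, median and highest line, and those of ENSG00000197020.11 were 26.6, 47.6 and 81.6 CPM. The standard errors of these 3 coefficients are larger than the gaps between them. The 2 genes that fell were ENSG00000160321.15, by 1.87 ± 0.214 (adjusted p = 4.03e-13), and ENSG00000229676.3, by 1.54 ± 0.321 (adjusted p = 1.12e-05). With all libraries thinned to the smallest total, ENSG00000229676.3 was no longer called (-1.28, adjusted p = 0.201, same test).

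The genes with negative coefficients were adjacent. All 4 of them, ENSG00000160321.15, ENSG00000197134.13 (-0.39 ± 0.439), ENSG00000229676.3 and ENSG00000183850.14 (-0.68 ± 0.389), lay in an inner stretch at positions 20 to 27 of the list, and the 4 identifiers without a row were the other 4 of its 8 positions. The stretch was marked out after these values were seen, so it is described and not tested. ENSG00000197134.13 and ENSG00000183850.14 did not pass the threshold (edgeR quasi-likelihood, adjusted p = 0.415 and 0.0979). The 25 genes outside the stretch had coefficients from 0.431 to 1.53, and 84% of them rose. Their 300 pairs had a mean r of 0.551, the 6 pairs inside the stretch 0.305, and the 100 pairs between the 25 and the 4 genes 0.304. Median counts in the stretch were 46 to 266, below the median of the cluster (309), and the part of low counts in this pattern was not tested.

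**Figure D5:**
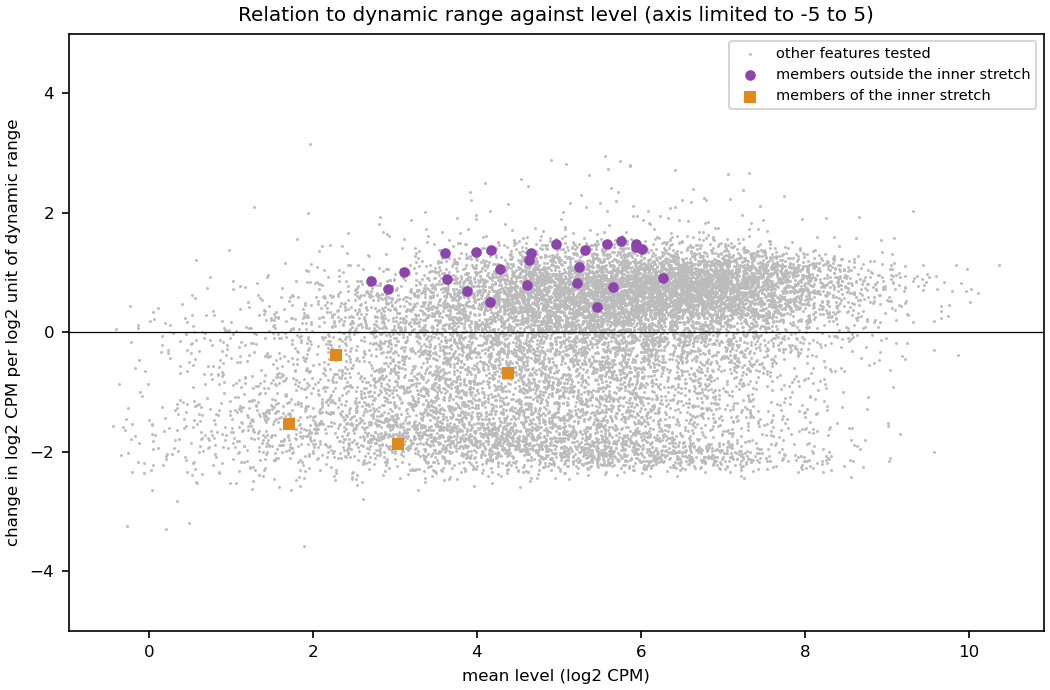
Change in log2 CPM per log2 unit of dynamic range (vertical axis) against mean level in log2 CPM (horizontal axis) for the features tested, with the 25 zinc finger genes outside the inner stretch as purple circles and its 4 genes as orange squares. All 25 lie above 0, between 0.431 and 1.53, and the 4 lie below 0, down to -1.87.

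With dynamic range in the fit, the library total went with lower levels of some genes and higher levels of none. No gene rose with the log2 total, against 29.3% of all features, and 8 of 29 fell, against 36.1% (edgeR quasi-likelihood test, Benjamini-Hochberg adjusted p below 0.05). DESeq2's Wald test with the same covariates also called 0 higher, against 29.1% of all features. The coefficients of the 8 ran from -0.235 to -0.091 log2 CPM per doubling of the total. The largest falls were those of ENSG00000160321.15 (-0.235 ± 0.0458, SE, adjusted p = 5.69e-06), ENSG00000229676.3 (-0.169 ± 0.07, adjusted p = 0.0287) and ENSG00000213967.11 (-0.139 ± 0.0587, adjusted p = 0.0322). Levels of ENSG00000213967.11 were 3.75, 8.40 and 16.7 CPM in the lowest, median and highest line. Over all 29 genes the coefficient was below 0 in 26 and above 0 in 3. The share that fell, 27.6%, was below that of all features, but this order was not kept in every setting, and the cause was not tested. Without the 10 shallowest, 14 genes (48.3%) fell against 33.5% of all features, with 7 of the 8 among them. The gene lost was ENSG00000213967.11 (-0.105, adjusted p = 0.217 in the same test). With all libraries thinned to the smallest total, 3 genes (10.3%) fell against 21.6%, with 2 of the 8 among them. The 3 genes named here were not called at that depth (edgeR quasi-likelihood, adjusted p = 0.42, 0.511 and 0.25).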

How the data were processed

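H3K36me3 CUT&Tag was analysed in 93 lymphoblastoid lines, 1 library each, as 1 group. The deposited table holds whole-number read counts for 14000 features by versioned Ensembl identifier, and a further deposited table holds scores for the same features, used only as an alternative. HISAT2 2.2.1, bedtools and hg38 are named, per the submitters' processing notes, without role; the counted interval, read filters and handling of shared reads were not given in the sources used here.

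Counts were scaled with TMM (factors 0.916 to 1.05) in edgeR 4.0.16 on R 4.3.3, and log2 CPM used a prior count of 2. Features with at least 10 counts in at least 47 lines were tested (13915). Variability was tested with the edgeR deviance goodness-of-fit against the trended dispersion, and associations with log2 total and dynamic range with the quasi-likelihood test, both on the whole table and Benjamini-Hochberg adjusted over it at 0.05. Correlations used residuals after both covariates. Where 2 groups of lines are given, they are the 46 libraries with lower and the 47 with higher totals. Scripts were tested on simulated data. P-values measure the spread between single libraries, which may be technical.

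The cluster and all lists and tests were chosen with earlier results of these data known. Values are given for the first and last gene, the 3 highest and 3 lowest medians, the 10 called genes with the highest and the 3 with the lowest dispersion ratio, the 3 most positive and negative coefficients past the threshold, the 5 highest and 2 lowest pairs, and the 5 most similar other features; other genes were named after their values were seen. Planned lists of pathway genes, other zinc finger genes and cell type markers are by symbol and could not be used, nor could gene lengths. Alternatives were DESeq2 1.42.0 size factors and tests, no filter, other covariates, thinning, subsets of lines and the scores; runs of similar features under other settings, genes with at least 100 counts and removal of table rows 1900 to 3200 were added after seeing the data. In the rows after 3200 up to 7700, which hold the cluster, 54.0% of counts were even numbers, against 50.1% in the first 1900 rows and 58.2% in the rows of the cluster. The cause was not tested. Promoters were searched with Python 3.11.15.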

Additional observations from a re-analysis of the deposited data

How the results depend on the processing

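There was 1 library per line, so the spread between lines holds technical variation, and depth limits the least covered genes. No paired analysis was possible because no line was repeated and all lines form 1 group. The number of genes called variable was 17 to 22 of 29 under other scaling, filters, covariates, depth and row sets. The share of all features called under those settings was 17.2% to 22.7%. It was 20.8% where 17 genes were called and 22.7% where 22 were. With each line left out in turn 18 to 20 genes were called, and the share of all features was not kept. DESeq2's dispersion outliers, whose criterion is stricter by construction, held 4 genes and 1.83% of all features. Thinning every library to the smallest total left 1 gene lower with dynamic range in place of 2, 3 lower with library total in place of 8 (10.3% against 21.6% of all features), and 15 of the 21 higher with dynamic range (27.5% of all features higher and 30.8% lower); thinning leaves fewer counts per gene. It also removed the variability call of ENSG00000256771.4, ENSG00000105750.15, ENSG00000197020.11, ENSG00000196172.9 and ENSG00000213967.11. Of the 17 genes called variable after thinning, 14 were among the 19 called with all counts. Without the 10 shallowest libraries 14 genes were lower with library total, 48.3% against 33.5% of all features, where the shares had been 27.6% and 36.1%; the cause was not tested. The mean correlation of 0.486 was 0.232 after thinning and 0.293 with 10 principal components removed, against 0.441 to 0.513 under the other settings. Removing components can take out shared movement itself, and whether it did so here was not tested. The median summed level was 845 CPM with DESeq2 size factors and 829 CPM without the 10 shallowest libraries. The features in runs numbered 61 to 73 of 100 under other covariates, subsets and the scores, with 58 to 94 of the 100 shared. Of 493 values of single genes under other settings 23 changed sign: 0 dynamic range coefficients, 8 library total coefficients, none of them past the threshold in either fit, and 15 log2 dispersion ratios. Past the threshold in 1 of the fits were the ratios of ENSG00000160321.15 (0.49) and ENSG00000213967.11 (-0.44) after thinning, and those of ENSG00000118620.13 (0.59) and ENSG00000196705.8 (0.44) without covariates; the cause was not tested.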
